A study of Mus musculus with 56 samples.

Results

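The 10 genes described here encode the feedback regulators of the SMAD pathway and one of its signal transducers. They were chosen by name, as *Smad6*, *Smad7*, *Ski*, *Skil*, *Smurf1*, *Smurf2*, *Pmepa1*, *Tgif1*, *Bambi* and *Smad3*, and all 10 were found among the 20314 genes measured. Levels are given in CPM, which are reads scaled to the size of each library, and all 10 were among the 13754 genes that reached 1 CPM in at least 2 samples and were tested. RNA-sequencing was performed on β-catenin mutant cell lines established from mammary tumors of female MMTV-PyMT mice, in which a viral oncogene is driven by a mammary tumor virus promoter. The comparison addressed whether a change of these genes upon TGFβ was present in each of 7 genotypes. Cells were sampled only after 4 days of TGFβ, so immediate and later changes cannot be told apart.

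The ligand TGFβ binds a pair of receptor kinases at the cell surface, which phosphorylate SMAD2 and SMAD3. These enter the nucleus with SMAD4 and bind short DNA elements next to other transcription factors. Several of the first genes they activate encode inhibitors of the pathway itself, which act at the receptor, on the SMAD proteins or as transcriptional co-repressors, and in mammary epithelial cells they are widely used as readouts of direct signaling.

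The genotypes were fl/fl, with β-catenin (*Ctnnb1*) alleles flanked by loxP sites, and D164A/fl, ΔC/fl and dm/fl, in which a D164A, ΔC or dm allele stood beside a floxed allele. In D164A/-, ΔC/- and dm/- cells the floxed allele was deleted. According to the methods of the study, this was done with an adenovirus carrying Cre and GFP, followed by sorting of GFP-positive cells, and fibroblasts had been removed from the tumor cell cultures by differential trypsinization. D164A changes a residue of β-catenin that is required for binding of the co-activators Bcl9 and Bcl9L. What the ΔC and dm alleles change is not given in the sources used here. One experiment exposed cells over 4 days to TGFβ (2 ng/ml), the other over 3 days to Wnt3a (100 ng/ml), and each had its own untreated cells. This gave 28 conditions with 2 biological replicates, 56 samples in all. The labels do not say how many lines represent a genotype or whether replicates are separate lines, so genotype and cell line cannot be told apart, and p-values measure only the spread between these samples.

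Each sample had 22.4 to 33.7 M reads in genes, and 1 read corresponded to 0.0306 to 0.0486 CPM. *Ctnnb1*, the targeted gene, was read at 531.5 to 3188 CPM in the 56 samples, and these totals do not show the mutations. Of 6 epithelial markers, *Epcam*, *Krt8*, *Krt18*, *Cdh1* and *Krt14* were above 1 CPM in all 56 samples, and the basal keratin *Krt5* ranged from 0 to 974 CPM and reached 1 CPM in 27. Of 4 immune markers, *Ptprc*, *Adgre1* and *Cd3e* did not exceed 0.208 CPM, and *Cd68*, a lysosomal protein of macrophages, had 1.10 to 79.4 CPM. Of 3 endothelial markers, *Kdr* did not exceed 0.297 CPM, *Pecam1* 1.44 CPM and *Cdh5* 35.0 CPM. Replicates of the TGFβ experiment correlated with r between 0.979 and 0.995 across genes, and those of the Wnt3a experiment with r between 0.833 and 0.991. The pair with the lowest value was untreated dm/fl of the Wnt3a experiment. Its replicate 1 also had the strongest dependence on the GC content of transcripts, with a Spearman rho of 0.871 over 9381 genes for its deviation from the mean of the dm/fl samples, and results resting on it are given with and without it.

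All differences below are log2 fold changes on the scale log2(CPM + 1), which understates the change of genes near 0, such as *Bambi* and *Smad6*. They were tested with limma in a fit of all 56 samples, p-values were adjusted over the 13754 genes with the Benjamini-Hochberg method, and a gene was called where the adjusted p did not exceed 0.05 and the log2 fold change reached 1 in either direction. The average over the 7 genotypes was judged by the adjusted p alone.

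Upon treatment with TGFβ, *Smad7* rose in 6 of the 7 genotypes, *Pmepa1* and *Tgif1* each rose in 2, and *Smad6* fell in dm/fl cells. In fl/fl cells, 1 of the 10 genes rose and none fell, while 3.31% of all genes tested rose and 2.94% fell. In D164A/fl cells, 2 rose and none fell, against 2.5% and 0.88% of all genes, and in D164A/- cells 1 rose and none fell, against 2.7% and 1.36%. In ΔC/fl cells, 1 rose and none fell, against 3.24% and 4.49%, and in ΔC/- cells 1 rose and none fell, against 2.86% and 3.69%. In dm/fl cells, 2 rose and 1 fell, against 3.45% and 6.88%, and in dm/- cells 2 rose and none fell, against 3.68% and 2.44%. These are 11 calls in 70 tests of a gene in a genotype, and 28 of the 70 had an unadjusted p below 0.05. The share of all genes with such an unadjusted p is not given here. The count was 11 with edgeR on the recovered reads, and 18 in a fit of the 28 samples of the TGFβ experiment alone. The median log2 fold change of the 10 genes lay between 0.16 in ΔC/fl and 0.79 in D164A/fl cells, and that of all genes between -0.03 and 0.03.

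Averaged over the 7 genotypes, *Smad7*, *Pmepa1*, *Skil*, *Tgif1*, *Smurf1* and *Smurf2* rose, and none of the 10 fell. Among all genes tested, 14.6% rose and 14.2% fell by the same rule. *Smad7* had the largest average of the 10, with a log2 fold change of 1.32 (SE 0.12, limma adjusted p = 1.99e-10), followed by *Pmepa1* with 1.20 (SE 0.17, adjusted p = 1.49e-06). The averages of *Smad3*, *Smad6*, *Bambi* and *Ski* were 0.11, 0.15, 0.18 and 0.36 and did not pass, with adjusted p-values between 0.0584 and 0.568. In the TGFβ experiment alone those of *Ski* (limma adjusted p = 0.00724) and *Bambi* (0.0182) passed as well.

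**Figure D1:**
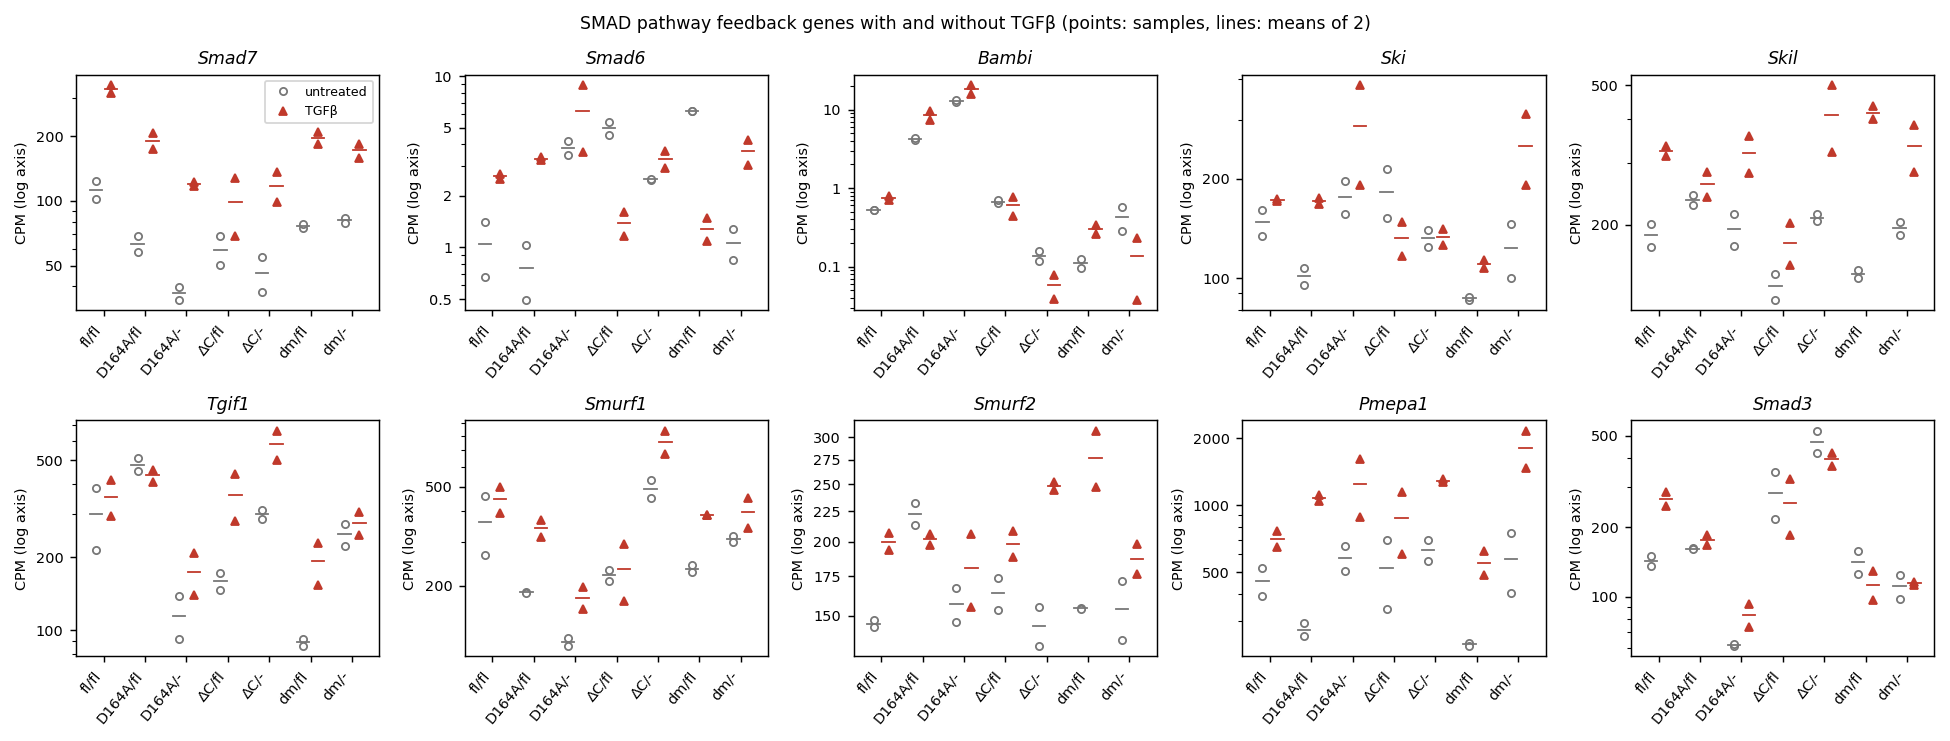
Levels of the 10 genes in the TGFβ experiment in CPM on log axes, 1 panel per gene, with the 7 genotypes on the x axis. Points are samples (open circles untreated, filled triangles TGFβ), short lines are means of 2. *Smad7* is higher in both treated samples in all 7 genotypes, in ΔC/fl only by 68.62 against 68.61 CPM. *Smad6* is lower in both treated samples of ΔC/fl and dm/fl.

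*Smad7* (Entrez 17131) encodes an inhibitory SMAD that occupies the activated receptor and brings ubiquitin ligases to it. In fl/fl cells it was measured at 124 and 102 CPM without and at 345 and 319 CPM with TGFβ, the highest values among the 56 samples. D164A/fl cells went from 68.9 and 57.7 CPM to 206 and 174 CPM, and D164A/- cells from 34.7 and 39.8 CPM to 123 and 118 CPM. Thus the levels after treatment differed among these 3 genotypes while the log2 fold changes were close, at 1.56, 1.57 and 1.67 (SE 0.32 each, limma adjusted p = 0.000911, 0.00175 and 0.000547). ΔC/fl cells had 68.61 and 50.2 CPM without and 128 and 68.62 CPM with TGFβ. The lower treated and the higher untreated value, after scaling, thus differed by less than the CPM of 1 read. The log2 fold change of 0.67 (95% interval 0.02 to 1.32) did not pass the limma test (adjusted p = 0.243). ΔC/- cells had 55.0 and 37.7 CPM without and 98.9 and 136 CPM with TGFβ. The respective values were 75.1 and 78.3 and then 183 and 208 CPM in dm/fl cells, and 83.2 and 79.1 and then 185 and 159 CPM in dm/- cells. The log2 fold changes of these genotypes were 1.33, 1.34 and 1.07, and all passed (limma adjusted p = 0.00535, 0.00295 and 0.0311).

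Both treated samples of *Smad7* lay above both untreated samples in all 7 genotypes, in ΔC/fl by the narrow margin given above. Median-of-ratios scaling shifts these ΔC/fl libraries by 0.0216 log2 (untreated replicate 1) and 0.0082 log2 (treated replicate 2). The order in ΔC/fl therefore depends on the scaling. In the reported scaling, such a separation in all 7 genotypes held for none of the other 9 genes, and for 2.47% of all genes tested. For fewer than 7 genotypes no share of all genes was computed. Such counts, given below for other genes, are therefore descriptions. With the TGFβ experiment alone, the limma adjusted p of *Smad7* in ΔC/fl cells was 0.0544. With the GC trend removed, 2 of the *Smad7* calls were lost. With only the 4 samples compared, its calls in D164A/-, ΔC/- and dm/- cells were lost. The calls in the ΔC/- and dm/- genotypes were not kept in refits without single libraries, which leave 1 sample in a condition. Without replicate 2 of the treated or of the untreated ΔC/- cells, the log2 fold change was 1.10 or 1.06 (limma adjusted p = 0.123 or 0.135). Leaving out any 1 of the 4 dm/- samples gave 0.96 to 1.18 (adjusted p = 0.0958 to 0.198).

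**Figure D2:**
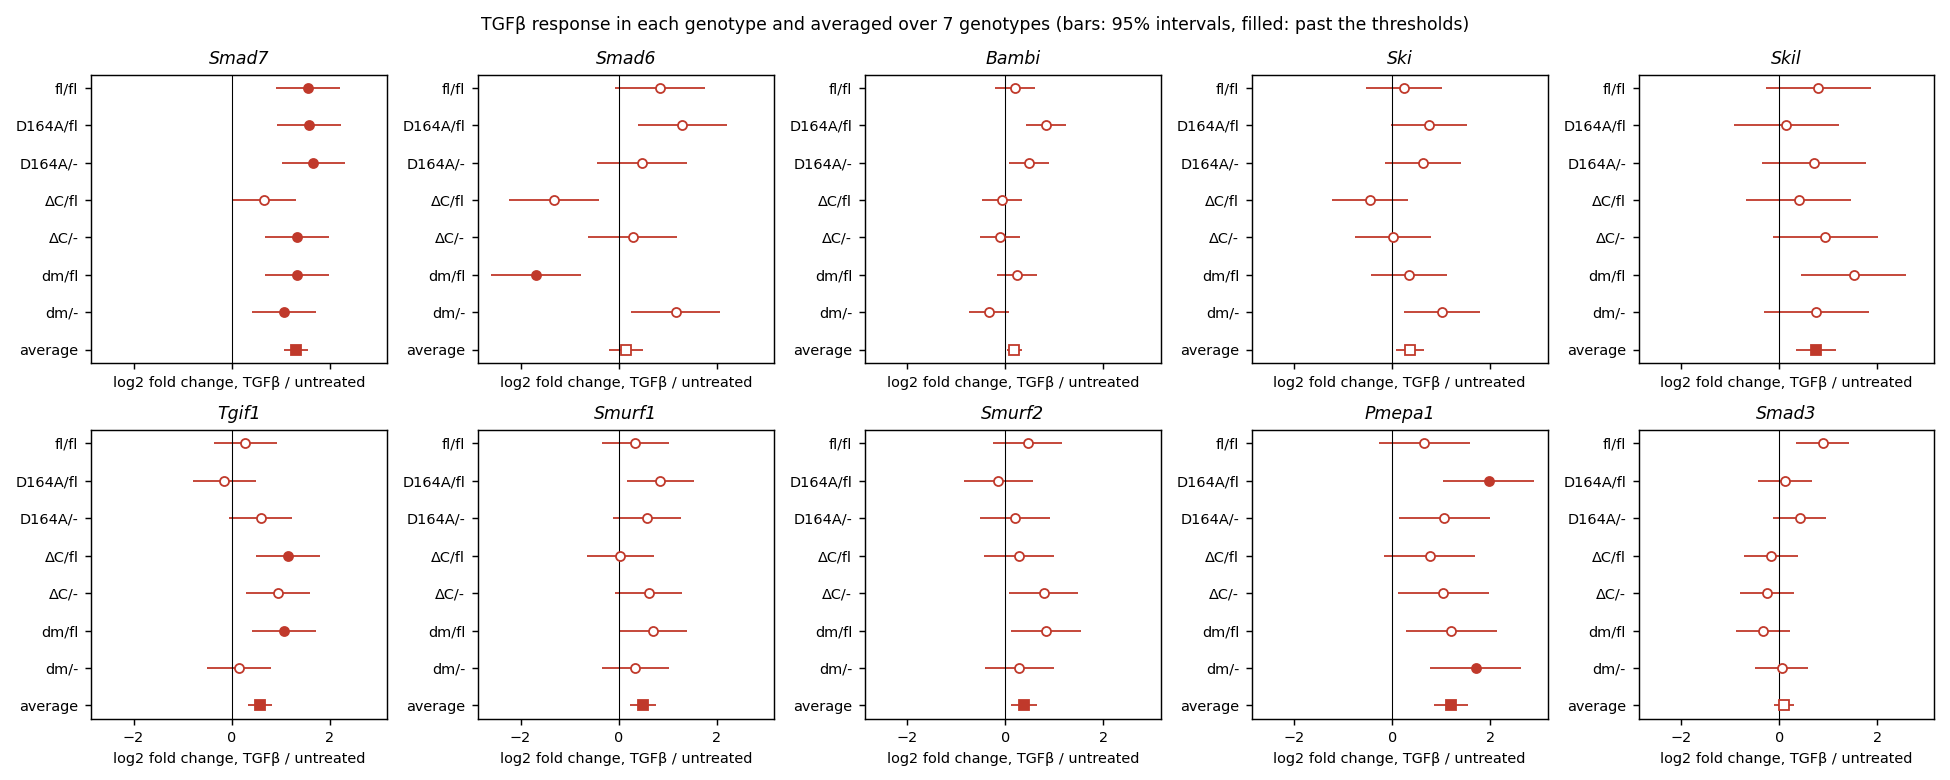
TGFβ response of the 10 genes as log2 fold change of treated over untreated cells (x axis), for the 7 genotypes (circles) and their average (squares). Bars are 95% intervals, and filled symbols passed the thresholds. The intervals of *Smad7* lie above 0 in all 7 genotypes, and *Smad6* has values on both sides of 0.

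*Smad6* (Entrez 17130), the second inhibitory SMAD, acts mainly on the BMP branch of the family. It was weakly expressed, at 0.115 to 14.3 CPM over the 56 samples, and its response went in opposite directions in different genotypes. In fl/fl cells it had 1.41 and 0.674 CPM without and 2.53 and 2.69 CPM with TGFβ. D164A/fl cells went from 0.495 and 1.03 CPM to 3.38 and 3.22 CPM, and dm/- cells from 1.28 and 0.849 CPM to 4.24 and 3.04 CPM. In these genotypes both treated samples were higher, with log2 fold changes of 0.84, 1.30 and 1.16 that did not pass the test (limma adjusted p = 0.427, 0.104 and 0.121). Treated ΔC/- cells, at 2.89 and 3.67 CPM, were also above untreated ones at 2.48 and 2.52 CPM. ΔC/fl cells had 5.40 and 4.54 CPM without and 1.17 and 1.62 CPM with TGFβ, a log2 fold change of -1.32 (limma adjusted p = 0.057). In dm/fl cells *Smad6* fell from 6.31 CPM in both untreated samples to 1.496 and 1.08 CPM (log2 fold change -1.68, SE 0.45, limma adjusted p = 0.00839). In D164A/- cells the samples overlapped, with 3.47 and 4.19 CPM without and 8.86 and 3.59 CPM with TGFβ.

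The response of *Smad6* differed among the 7 genotypes (limma F test, adjusted p = 0.00106), and this test stayed below 0.05 in all 65 alternatives run, with adjusted p-values of 2.03e-05 to 0.00641. In the TGFβ experiment alone, the decreases in ΔC/fl and dm/fl and the increases in D164A/fl and dm/- all passed. In the fit of all samples, the decrease in dm/fl did not pass without treated replicate 2 or without either untreated replicate (log2 fold change -1.55 to -1.68, limma adjusted p = 0.0525 to 0.0925). The summed level of 6 fibroblast markers was high in the same genotypes in which *Smad6* was lower with TGFβ. Untreated cells had sums of 745 and 313 CPM in ΔC/fl and of 537 and 315 CPM in dm/fl, mainly from *Pdgfra* (90.9 to 302 CPM) and *Pdgfrb* (145 to 494 CPM), and untreated cells of the other 5 genotypes of this experiment had 5.58 to 105 CPM. Upon TGFβ treatment both dm/fl samples were lower, at 130 and 102 CPM, and the ΔC/fl samples, at 323 and 369 CPM, overlapped with the untreated ones. Of these markers, *Lum* did not exceed 0.08 CPM and *Dcn* 3.49 CPM in any sample, and 5 of 6 reached 1 CPM in at least 1 sample. Their part in the result was not tested, and fewer cells of a type and less RNA per cell cannot be told apart in these bulk samples.

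The 250 bases before the annotated start of *Smad6* (RefSeq, GRCm38.p6, chr9:64022060-64022309, minus strand) are shown because this gene had the most divergent response. A SMAD box, CAGAC or GTCTG on the strand shown, would stand in capitals, and this window holds none.
Smad6: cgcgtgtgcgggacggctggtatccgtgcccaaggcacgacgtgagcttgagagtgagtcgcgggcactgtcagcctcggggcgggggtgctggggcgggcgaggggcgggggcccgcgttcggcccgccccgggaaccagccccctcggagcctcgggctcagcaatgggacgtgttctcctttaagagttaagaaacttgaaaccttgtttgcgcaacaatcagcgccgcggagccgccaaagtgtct
Among the 32851 promoter windows of the same length in the table, 42.2% hold a SMAD box, 0.167% the palindrome GTCTAGAC and 4.46% the AP-1 motif TGACTCA on either strand. For 6 of the 10 genes the windows were searched one by one, and none of these 10 windows holds the palindrome or the AP-1 motif. The table had no window of *Skil* or *Pmepa1*, and those of *Smad7* and *Bambi* are not reported here. A match or its absence describes these letters only.

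*Bambi* (Entrez 68010) encodes a decoy receptor that resembles a TGFβ receptor without its kinase. It was detected mainly in the D164A lines, where its 16 samples had 4.10 to 20.4 CPM (median 9.13), and the other 40 samples had 0 to 0.919 CPM (median 0.176). In D164A/fl cells it was measured at 4.10 and 4.38 CPM without and at 7.31 and 9.51 CPM with TGFβ. The log2 fold change was 0.84 (SE 0.20, limma adjusted p = 0.00886), below the fold limit. In D164A/- cells it had 12.4 and 13.0 CPM without and 20.4 and 15.9 CPM with TGFβ (log2 fold change 0.47, limma adjusted p = 0.257). In ΔC/- and dm/- cells both treated samples were lower, at 0.0379 to 0.231 CPM, than the untreated ones at 0.117 to 0.581 CPM, levels that correspond to few reads. The F test among genotypes passed for *Bambi* (limma adjusted p = 0.0328). It passed in 54 of 66 fits, this one included, and not with a pseudocount of 0.1 (adjusted p = 0.137), with edgeR (adjusted p = 0.245) or with the GC trend removed (adjusted p = 0.671). It was also lost when 1 library was left out, which held for replicate 1 of untreated D164A/- cells, both untreated replicates and treated replicate 2 of D164A/fl, treated replicate 1 and untreated replicate 2 of ΔC/-, and replicate 1 of treated and of untreated dm/- cells.

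*Skil* (Entrez 20482) and *Ski* (Entrez 20481) encode co-repressors that bind SMAD complexes on DNA and are degraded when the pathway is activated. *Skil* rose on average over the genotypes, with a log2 fold change of 0.75 (SE 0.20, limma adjusted p = 0.00378). Both treated samples were above both untreated samples in 6 genotypes. The largest difference was in dm/fl cells, with 141 and 149 CPM without and 400 and 436 CPM with TGFβ (log2 fold change 1.52, 95% interval 0.45 to 2.59, limma adjusted p = 0.0521). In fl/fl cells *Skil* went from 201 and 172 CPM to 336 and 314 CPM, and in ΔC/- cells from 214 and 205 CPM to 500.5 and 323 CPM. The treated values of D164A/- and dm/- cells, at 280.5 to 386 CPM, were also above the untreated ones at 174 to 215 CPM. The exception was D164A/fl, where the values overlapped, with 243 and 227 CPM without and 283 and 239 CPM with TGFβ (log2 fold change 0.15, interval -0.92 to 1.22). No genotype passed in the fit of all samples. In the TGFβ experiment alone, *Skil* had an adjusted p of at most 0.05 in 5 genotypes, with 1.32e-05 in dm/fl, 0.00225 in ΔC/-, 0.00935 in fl/fl, 0.0116 in dm/- and 0.0263 in D164A/- cells. Its replicates varied more in the Wnt3a experiment, for example at 319 and 126 CPM in untreated D164A/fl cells.

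*Ski* did not pass on average (log2 fold change 0.36, limma adjusted p = 0.0584). It passed when replicate 2 of treated D164A/- cells, replicate 1 of untreated ΔC/fl cells, replicate 2 of treated dm/- cells or replicate 1 of untreated dm/- cells was left out, the lowest adjusted p being 0.0231. Its values were higher in both treated samples in fl/fl, D164A/fl, dm/fl and dm/- cells and lower in both in ΔC/fl cells, which had 214 and 152 CPM without and 148 and 117 CPM with TGFβ (log2 fold change -0.45). In dm/- cells *Ski* had 146 and 100.2 CPM without and 313 and 191 CPM with TGFβ, a log2 fold change of 1.01 (limma adjusted p = 0.11) that was called in the TGFβ experiment alone (adjusted p = 0.0126).

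*Tgif1* (Entrez 21815) encodes a homeodomain co-repressor of SMAD2. It rose in ΔC/fl cells from 171 and 146 CPM to 441 and 280 CPM (log2 fold change 1.15, SE 0.32, limma adjusted p = 0.0148). It also rose in dm/fl cells from 91.6 and 86.5 CPM to 230 and 154 CPM (log2 fold change 1.07, limma adjusted p = 0.0192). These genotypes and D164A/-, at 91.8 and 138 CPM, had the lowest untreated means of this experiment. In D164A/- cells the treated samples had 139 and 207 CPM (log2 fold change 0.59, limma adjusted p = 0.506). In ΔC/- cells *Tgif1* had 311 and 288 CPM without and 504 and 661 CPM with TGFβ, with no overlap (log2 fold change 0.94, limma adjusted p = 0.0587). In D164A/fl cells, which had the highest untreated values of this experiment at 510.0 and 451 CPM, treated samples had 408 and 458 CPM (log2 fold change -0.15). The samples overlapped as well in fl/fl, with 386 and 215 CPM before and 415 and 295 CPM after treatment, and in dm/-, with 223 and 274 CPM before and 306 and 246 CPM after. The rise in ΔC/fl did not pass without treated replicate 1 (0.82, limma adjusted p = 0.336) or untreated replicate 2 (1.03, adjusted p = 0.145). That in dm/fl did not pass without treated replicate 1 (0.79, limma adjusted p = 0.301) or either untreated replicate (1.03 and 1.11, adjusted p = 0.113 and 0.0946). The average over the genotypes was 0.58 (SE 0.12, limma adjusted p = 0.000331).

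RefSeq lists 5 starts of *Tgif1* on chromosome 17. The windows before 2 of them are shown because this gene rose in 2 genotypes, at chr17:70853533-70853782 and chr17:70851735-70851984 on the minus strand, with SMAD boxes (CAGAC or GTCTG) in capitals.
Tgif1, outermost start: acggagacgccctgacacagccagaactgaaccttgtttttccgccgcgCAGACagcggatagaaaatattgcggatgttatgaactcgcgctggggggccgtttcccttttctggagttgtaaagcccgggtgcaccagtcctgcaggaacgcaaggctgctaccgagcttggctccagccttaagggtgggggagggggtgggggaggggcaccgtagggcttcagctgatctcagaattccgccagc
Tgif1, next start: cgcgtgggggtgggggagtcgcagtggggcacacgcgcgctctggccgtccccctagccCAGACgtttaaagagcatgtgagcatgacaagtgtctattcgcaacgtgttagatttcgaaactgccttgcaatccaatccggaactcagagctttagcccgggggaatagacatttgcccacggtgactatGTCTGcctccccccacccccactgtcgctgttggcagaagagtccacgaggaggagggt
The first window holds 1 SMAD box and the second holds 2, and of the other 3 windows 1 holds a single SMAD box.

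*Smurf1* (Entrez 75788) and *Smurf2* (Entrez 66313) encode related ubiquitin ligases that mark receptors and SMAD proteins for degradation. Both rose on average, *Smurf1* with a log2 fold change of 0.50 (SE 0.13, limma adjusted p = 0.00293) and *Smurf2* with 0.38 (SE 0.13, limma adjusted p = 0.0264). Neither was called in a single genotype. In the TGFβ experiment alone, *Smurf2* passed the adjusted p in dm/fl (limma, 0.000382) and ΔC/- cells (0.000955), below the fold limit. *Smurf1* did so in D164A/fl (0.0193) and dm/fl cells (0.036), also below the fold limit. The other genotypes did not pass. *Smurf1* was higher in both treated samples in 5 genotypes, for example at 369 and 315 CPM in D164A/fl cells, whose untreated samples had 189 and 188 CPM (log2 fold change 0.85, limma adjusted p = 0.185). The highest level was that of treated ΔC/- cells, at 674 and 836 CPM, compared with 533 and 449.6 CPM untreated (log2 fold change 0.62, limma adjusted p = 0.335). In ΔC/fl cells treated replicate 1 was above and replicate 2 below both untreated samples, and the log2 fold change was 0.03. *Smurf2* was higher in both treated samples in 5 genotypes and lower in both in D164A/fl cells, which had 232 and 213 CPM without and 197 and 206 CPM with TGFβ (log2 fold change -0.14). Its largest difference was in dm/fl cells, which went from 155 and 154 CPM to 247 and 307 CPM (log2 fold change 0.83, limma adjusted p = 0.137). The average of *Smurf2* did not pass without replicate 2 of treated D164A/- cells or replicate 1 of untreated dm/- cells, the highest adjusted p being 0.0535.

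The window before the start of *Smurf1* (chr5:144965831-144966080, minus strand) is shown because this was the one ligase promoter with 2 SMAD boxes, again in capitals. That of *Smurf2* holds 1 and those of *Ski* and *Smad3* hold none.
Smurf1: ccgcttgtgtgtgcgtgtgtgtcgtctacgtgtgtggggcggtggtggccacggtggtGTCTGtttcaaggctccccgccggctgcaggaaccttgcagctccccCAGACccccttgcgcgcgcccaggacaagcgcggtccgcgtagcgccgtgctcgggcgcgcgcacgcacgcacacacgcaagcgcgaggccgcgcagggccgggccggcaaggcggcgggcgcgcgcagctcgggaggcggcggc

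*Pmepa1* (Entrez 65112) encodes a membrane protein that binds SMAD2 and SMAD3 and keeps them from the receptor. It was at 125 to 2158 CPM over the 56 samples. In D164A/fl cells it rose from 256 and 294 CPM to 1109 and 1041 CPM (log2 fold change 1.96, SE 0.46, limma adjusted p = 0.00659). In dm/- cells it rose from 750 and 400.3 CPM to 2158 and 1468 CPM (log2 fold change 1.70, limma adjusted p = 0.0147). Treated samples also lay above untreated ones in fl/fl cells, with 519 and 389 CPM without and 766 and 650 CPM with TGFβ, the smallest difference of the 7 (log2 fold change 0.65, limma adjusted p = 0.716). D164A/- cells went from 656 and 503 CPM to 1619 and 883 CPM, ΔC/- cells from 699 and 562 CPM to 1278 and 1307 CPM, and dm/fl cells from 239 and 233 CPM to 620 and 483 CPM. Their log2 fold changes were 1.06, 1.04 and 1.21 without overlap of samples (limma adjusted p = 0.272, 0.178 and 0.0838). In ΔC/fl cells the samples overlapped, with 700 and 340 CPM without and 1143 and 603 CPM with TGFβ, and replicate 1 was the higher one with and without TGFβ (log2 fold change 0.76). The call in D164A/fl was lost without either treated replicate or untreated replicate 1 (1.87 to 2.01, limma adjusted p = 0.0596 to 0.107). That in dm/- was lost without treated replicate 1 or untreated replicate 2 (1.42 and 1.25, adjusted p = 0.17 and 0.31). With the TGFβ experiment alone, *Pmepa1* was called in 4 genotypes, D164A/fl, ΔC/-, dm/fl and dm/-.

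*Smad3* (Entrez 17127), the transducer phosphorylated by the activated receptor, showed no shared direction. In fl/fl cells it had 150 and 136 CPM without and 284 and 247 CPM with TGFβ (log2 fold change 0.88, SE 0.27, limma adjusted p = 0.0361), below the fold limit. In D164A/- cells both treated samples, at 73.6 and 93.0 CPM, were above untreated ones at 61.4 and 62.1 CPM (log2 fold change 0.42, limma adjusted p = 0.69), and in D164A/fl cells 168 and 186 CPM compared with 163 and 161 CPM (log2 fold change 0.12). The samples of the ΔC and dm genotypes overlapped, with log2 fold changes of -0.33 to 0.05.

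To ask whether the responses differed from those of fl/fl cells, the TGFβ response of each mutant genotype was compared with that of fl/fl as an interaction. Of the 10 genes, 1 was called, *Smad6* in dm/fl, with a difference of -2.52 (SE 0.63, limma adjusted p = 0.0129). None was called in the other 5 genotypes. Of the 60 tests, 8 had an unadjusted p below 0.05, a level for which no share of all genes is given. Among all genes, 3.81% were called in D164A/fl, 4.28% in D164A/-, 2.69% in ΔC/fl, 2.01% in ΔC/-, 4.04% in dm/fl and 2.78% in dm/-. For *Smad7* the differences from fl/fl ranged from -0.89 in ΔC/fl (95% interval -1.80 to 0.03) to 0.11 in D164A/- (-0.81 to 1.03). For *Pmepa1* they ranged from 0.12 in ΔC/fl (-1.20 to 1.43) to 1.32 in D164A/fl (0.00 to 2.63). For *Smad3* the differences were negative in all 6 mutant genotypes, which share the fl/fl samples, and lay between -0.47 in D164A/- and -1.21 in dm/fl (limma adjusted p = 0.0658 to 0.999). The value of dm/fl passed in the TGFβ experiment alone (adjusted p = 0.0283), and in the fit of all samples it passed when either replicate of untreated dm/fl or untreated ΔC/fl cells of the Wnt3a experiment or of treated ΔC/fl cells was left out (0.0429 to 0.0472). For *Smad6* in ΔC/fl the difference was -2.17 (limma adjusted p = 0.0565), and it passed in the TGFβ experiment alone (0.00161), with median-of-ratios scaling (0.0485) and when single libraries of 4 other conditions were left out (0.00733 to 0.0464). The *Smad6* call was lost with edgeR (log2 difference -3.61, adjusted p = 0.0546) and without treated dm/fl replicate 2, untreated dm/fl replicate 1 or untreated fl/fl replicate 2 (-2.26 to -2.52, limma adjusted p = 0.0574 to 0.0808).

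When cells with a deleted second allele were compared with their floxed counterparts, the TGFβ response of *Smad6* was higher in dm/- than in dm/fl by 2.84 (SE 0.63, limma adjusted p = 0.00266). No other of the 10 genes was called. Of the 30 tests, 3 had an unadjusted p below 0.05, again without a share of all genes. Among all genes, 1.35% were called for D164A, 3.13% for ΔC and 7.31% for dm. The corresponding differences for *Smad7* were 0.09 for D164A (95% interval -0.82 to 1.01), 0.66 for ΔC (-0.26 to 1.58) and -0.27 for dm (-1.19 to 0.65). Across all 7 genotypes the F test passed for *Smad6* and *Bambi* among the 10 genes, and for 18.3% of all genes. The adjusted p-values of the other 8 lay between 0.162 for *Smad3* and 1 for *Skil* and *Smurf1*. *Skil* (0.0167) and *Smurf2* (0.0116) also passed in the TGFβ experiment alone.

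Other genes of the pathway were looked up in the same fit. Of 18 direct targets, 9 rose and 3 fell on average, and in single genotypes between 3 (fl/fl and dm/-) and 6 (ΔC/-) rose and 0 to 2 fell. Of all genes, 14.6% rose and 14.2% fell on average, and 2.5% to 3.68% rose and 0.88% to 6.88% fell in single genotypes. *Ccn2*, encoding a matricellular protein, rose in all 7 genotypes, by 1.68 in dm/fl to 4.05 in D164A/- cells (average 2.74, SE 0.19). *Fn1*, encoding fibronectin, rose in 6 genotypes by 2.34 to 4.90 and had 0.68 in dm/fl cells, where the samples overlapped (limma adjusted p = 0.717). *Ltbp2*, encoding a latent TGFβ binding protein, rose in 4 genotypes, by 4.97 in D164A/fl, and both of its treated samples were higher in all 7. *Bhlhe40*, encoding a basic helix-loop-helix repressor, rose in 5 genotypes, by 2.99 in D164A/fl cells, and had 1.19 in fl/fl and 1.05 in dm/- cells (limma adjusted p = 0.0592 and 0.106). The median log2 fold change of the targets ranged from 0.20 in dm/- to 1.42 in ΔC/- cells.

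Of 15 ligands and receptors, 3 rose and 2 fell on average, close to the 14.6% and 14.2% of all genes. *Tgfbr3*, the co-receptor betaglycan, fell (average -1.32, SE 0.17) and was called in fl/fl, D164A/- and dm/fl cells, where its log2 fold changes were -2.82, -1.71 and -3.06. *Tgfb2*, a ligand, fell on average by 1.09 and was called in D164A/- and dm/fl cells. *Acvr1*, a type I receptor, rose by 0.98 on average and was called in 3 genotypes, with both treated samples higher in all 7. *Acvrl1*, another type I receptor, rose by 0.82 and was called in 4 genotypes, with low untreated means that reached 1.02 CPM. In single genotypes, 0 to 2 of the 15 rose and 0 to 3 fell.

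Of 17 further SMADs and regulators, 16 were tested, and 5 rose and 3 fell on average, against 14.6% and 14.2% of all genes. *Ldlrad4*, a membrane protein related to Pmepa1, rose by 1.12 (SE 0.12) and was called in D164A/fl, ΔC/- and dm/- cells. *Nedd4l*, a ubiquitin ligase, fell by 0.49 on average. The BMP antagonist *Nog* fell by 0.51 on average and was called only in fl/fl (-1.84), with -0.79 to 0.08 in the other genotypes and untreated means of at most 2.79 CPM. *Smad9*, a BMP-branch SMAD, fell in dm/fl cells by 2.68 and had log2 fold changes between -0.16 and 0.14 in the other genotypes. In single genotypes, 0 to 1 of the 16 rose and 0 to 1 fell.

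**Figure D3:**
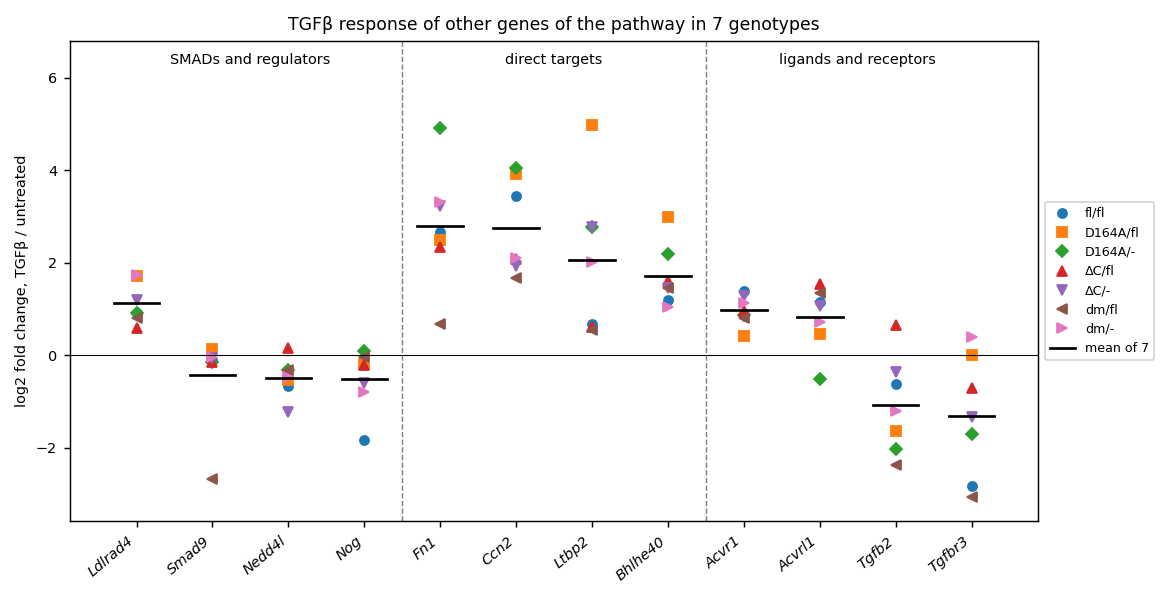
TGFβ response of 12 other pathway genes as log2 fold change of treated over untreated cells (y axis), with 1 symbol per genotype and black lines for the mean of 7. *Ccn2* lies at 1.68 or above in all 7 genotypes, and *Smad9* stands at -2.68 in dm/fl.

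Upon treatment with Wnt3a, none of the 10 genes was called in any genotype or on average with limma or edgeR, and 7 of the 70 single tests had an unadjusted p below 0.05. These were 1 in fl/fl, 3 in D164A/fl, 1 in D164A/- and 2 in dm/fl cells. Of all 13754 genes tested, 1871 had such a p in fl/fl, 1743 in D164A/fl and 498 in D164A/- cells. The respective numbers were 359 in ΔC/fl, 367 in ΔC/-, 2300 in dm/fl and 29 in dm/- cells. Among all genes, 0.378% were called in fl/fl, 4.15% in D164A/fl, 0.654% in D164A/-, 0.225% in ΔC/fl, 0.0509% in ΔC/-, 0.574% in dm/fl and 0% in dm/-. On average 3.52% of genes passed the adjusted p. *Smad7* had an average log2 fold change of 0.12 (95% interval -0.13 to 0.36) and *Pmepa1* of 0.26 (-0.09 to 0.61), and 2 of the 10 averages had an unadjusted p below 0.05. The same held for the averages of 1476 of all 13754 genes. In D164A/fl cells, where the most genes were called, *Smad7* had 38.9 and 38.4 CPM without and 72.3 and 72.5 CPM with Wnt3a (log2 fold change 0.89, limma adjusted p = 0.122). In the same cells *Bambi* had 8.13 and 14.8 CPM without and 7.06 and 6.95 CPM with Wnt3a (log2 fold change -0.58, limma adjusted p = 0.095). *Smad6* in dm/fl had a log2 fold change of -1.57 (limma adjusted p = 0.118) that rested on untreated replicate 1 at 14.3 CPM, and without that library it was -0.44. Without replicate 2, which leaves only that library as the untreated control, *Smad6* (-2.70), *Ski* (-1.14) and *Smurf2* (1.56) were called in dm/fl cells. *Skil* in fl/fl cells had 231 and 179 CPM without and 49.5 and 125 CPM with Wnt3a (log2 fold change -1.35, limma adjusted p = 0.242), and it was called without treated replicate 2 (-2.02, adjusted p = 0.0379). The TGFβ and Wnt3a experiments differed in duration and replicate spread, and their responses were not tested against each other.

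**Figure D4:**
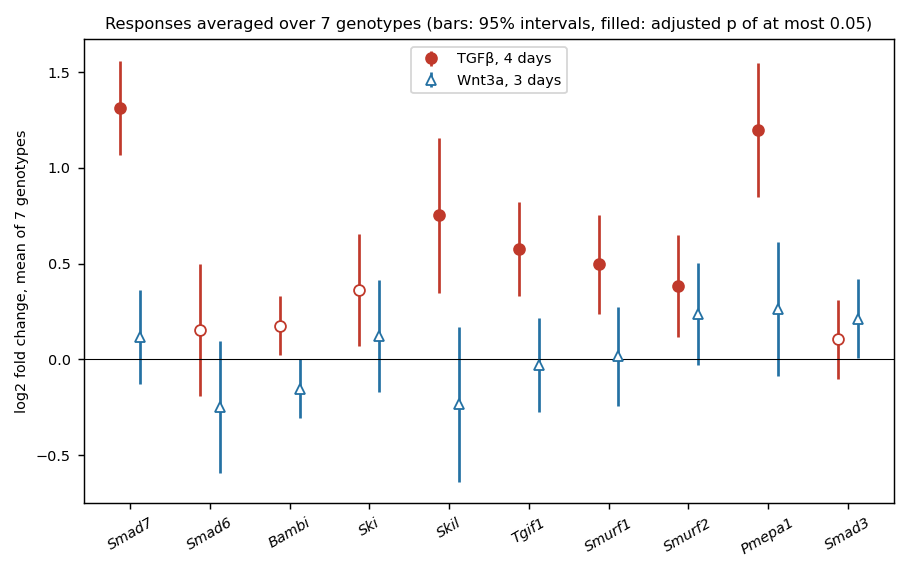
Average log2 fold change over the 7 genotypes upon TGFβ (red circles) and Wnt3a (blue triangles) for the 10 genes, with 95% intervals. Filled symbols passed an adjusted p of 0.05, which 6 genes did with TGFβ and none with Wnt3a.

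Levels in untreated cells were compared between genotypes in both experiments, and a difference was counted when it was called in the same direction in each. *Bambi* was higher in both D164A genotypes than in fl/fl cells, *Smad6* was higher in D164A/-, ΔC/fl and dm/fl, *Smad7* was lower in ΔC/-, and *Tgif1* was lower in dm/fl. This made 1 of the 10 genes in D164A/fl against 7.81% of all genes, 2 in D164A/- against 11.9% and 1 in ΔC/fl against 9.46%. It was 1 in ΔC/- against 13.1%, 2 in dm/fl against 9.79% and none in dm/- against 9.77%.

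*Bambi* had 0.523 and 0.524 CPM in untreated fl/fl cells of the TGFβ experiment and 0.189 and 0.0383 CPM in those of the Wnt3a experiment. Untreated D164A/- cells had 12.4 and 13.0 CPM and 10.7 and 10.4 CPM in the respective experiments (log2 fold change 3.17 and 3.38, SE 0.20 each, limma adjusted p = 1.85e-14 and 4.54e-15). Untreated D164A/fl cells had 4.10 and 4.38 CPM and 8.13 and 14.8 CPM (1.78 and 3.43, limma adjusted p = 1.92e-08 and 2.99e-15). All 40 samples of the other genotypes lay below all 16 D164A samples. The share of all genes with such a separation was not computed, so this is a description. The calls in D164A/fl and D164A/- were kept in all 36 alternatives run.

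*Smad6* in untreated dm/fl cells had 6.31 CPM in both samples of the TGFβ experiment and 14.3 and 2.18 CPM in the Wnt3a experiment (log2 fold change against fl/fl 1.86 and 2.56, limma adjusted p = 0.00206 and 4.91e-05). Without replicate 1 of the Wnt3a experiment the second value was 1.43 (limma adjusted p = 0.0238). The transcripts of *Smad6* have 64.3% GC, against a median of 51.0% over the genes tested, and the calls of *Smad6* in dm/fl and ΔC/fl were lost when the GC trend of each library was removed. That in ΔC/fl was lost in 8 of 36 alternatives, among them 5 that left out 1 library. These were replicate 2 of untreated fl/fl and replicate 1 of untreated ΔC/fl cells in the TGFβ experiment, and replicate 2 of untreated ΔC/fl and either replicate of untreated fl/fl cells in the Wnt3a experiment. That in D164A/- was lost with no filter on low values and without either replicate of untreated fl/fl or D164A/- cells of the TGFβ experiment. *Smad7* in untreated ΔC/- cells had 55.0 and 37.7 CPM and 26.5 and 37.6 CPM in the respective experiments (log2 fold change -1.28 and -1.48, limma adjusted p = 0.00224 and 0.000707). This call was lost without replicate 2 of the first experiment. *Tgif1* in untreated dm/fl cells had 91.6 and 86.5 CPM and 72.9 and 88.0 CPM (log2 fold change -1.68 and -1.53, limma adjusted p = 0.000122 and 0.000429). Without replicate 1 of the Wnt3a experiment the second value was -1.39 (limma adjusted p = 0.0133).

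Between deleted and floxed second alleles, 2 of the 10 genes were called in the same direction in both experiments for dm, against 10.5% of all genes. None was called for D164A or ΔC, against 1.99% and 6.24%. *Tgif1* was higher in dm/- than in dm/fl cells by 1.46 and 2.10 (SE 0.32 each, limma adjusted p = 0.00069 and 5.46e-06), and the second difference was 1.97 without dm/fl replicate 1 (adjusted p = 0.000359). It had 223 and 274 CPM in dm/- cells of the TGFβ experiment and 381 and 316 CPM in those of the Wnt3a experiment. *Smad6* had differences of -1.83 and -2.18, and without dm/fl replicate 1 of the Wnt3a experiment the second difference was -1.05 (limma adjusted p = 0.0953). In that setting *Pmepa1* was called higher in dm/- cells instead, so that the count remained 2.

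**Figure D5:**
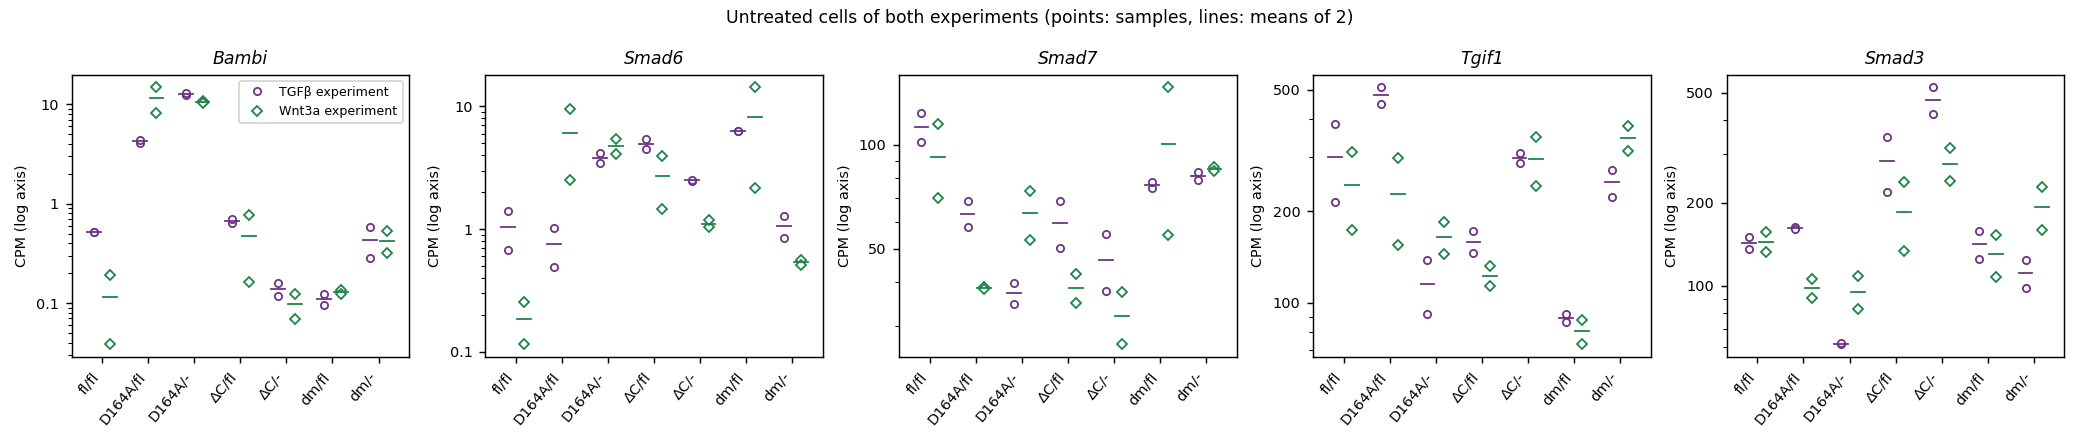
Levels of *Bambi*, *Smad6*, *Smad7*, *Tgif1* and *Smad3* in untreated cells in CPM on log axes, by genotype, with 1 symbol per sample (circles TGFβ experiment, diamonds Wnt3a experiment) and lines for means of 2. *Bambi* lies at 4.10 CPM or more in the D164A genotypes and at 0.775 CPM or less elsewhere, and *Tgif1* is at 72.9 to 91.6 CPM in dm/fl.

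The 10 genes did not vary as 1 group. Over the 28 condition means of log2(CPM + 1), Pearson's r between pairs ranged from -0.69 for *Smurf1* and *Bambi* to 0.71 for *Skil* and *Pmepa1*, and it was 0.47 for *Smad7* and *Pmepa1*. The conditions share genotypes and libraries, so these values are descriptions. The genes outside the 10 most like *Smad7*, among those with a mean of at least 10 CPM, were *Pdgfa* (r = 0.82), *Map2k1* (0.81) and *Pdgfb* (0.80). *Pdgfa* and *Pdgfb* encode chains of platelet-derived growth factor and *Map2k1* encodes the kinase MEK1. With TGFβ, *Pdgfa* was called higher in 6 genotypes, *Pdgfb* in 2 and *Map2k1* in 0. For *Skil* the most similar genes were *Cttnbp2nl* (0.91), *Gnpda2* (0.89) and *Zfp867* (0.88), called higher with TGFβ in 1, 0 and 0 genotypes. For *Pmepa1* they were *Phf21a* (0.90), *Fam210b* (0.88) and *Mex3a* (0.87), called higher in 0, 4 and 3.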

How the data were processed

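Poly(A) RNA was sequenced in 56 samples of 7 genotypes. According to the methods of the study, reads were mapped to mm10 with STAR keeping unique hits, and reads starting in exons of RefSeq genes were counted with QuasR. The authors deposited a signal per gene, its read count divided by an effective library size, which is called CPM here. All values were whole multiples of 1 read within 0.001 reads (100% in every sample), so the counts could be recovered, and the scaling factors were 0.81 to 1.14. As a floor, 3 reads (0.0917 to 0.146 CPM) were used, for counting error only.

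On the scale log2(CPM + 1), limma 3.58.1 (R 4.3.3, eBayes with trend) was fitted with 1 coefficient for each of 28 conditions, after a filter of at least 1 CPM in at least 2 samples. The columns add up to 0.878 to 1.24 M CPM. Entrez identifiers were matched to symbols for 20261 of 20314 genes with RefSeq GRCm38.p6, which also gave the promoter sequences. Alternatives were a pseudocount of 0.1, no filter, median-of-ratios scaling, edgeR 4.0.16 on the recovered reads, a replicate block, a lowess GC correction (span 0.3), subsets of samples, and leaving out each sample. The crossed pairing was added after seeing the data. The fits were tested on simulated data, and tables and figures were made with Python 3.11.15, pandas 2.3.3 and matplotlib 3.10.9.

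The 10 genes and the lists of other pathway genes and markers were chosen with earlier results of these data known. All 10 genes are described. From each pathway list the 4 genes with the largest absolute average response among those with an adjusted p of at most 0.05 are named (1 gene of the lists is not reported here), and for *Smad7*, *Skil* and *Pmepa1* the 3 genes with the most similar profile.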

Additional observations from a re-analysis of the deposited data

Results flagged for a closer look

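The TGFβ response of *Smad6* differed among the 7 genotypes (limma F test, adjusted p = 0.00106). It was lower in dm/fl than in fl/fl cells by a log2 difference of -2.52, and higher in dm/- than in dm/fl cells by 2.84. The response of *Bambi* also differed among the genotypes in the reported fit (limma F test, adjusted p = 0.0328). That test did not pass with edgeR (adjusted p = 0.245), the smaller pseudocount (0.137) or the GC trend removed (0.671), or in some refits without a single library. The log2 fold changes of *Bambi* ranged from -0.33 in dm/- to 0.84 in D164A/fl cells on a scale that understates changes at low levels. As a ratio of mean CPM, the increase was 2.76 in dm/fl, from 0.11 to 0.30 CPM, and 1.98 in D164A/fl cells. No condition had more than 2 samples, so no single sample could be tested as an outlier within its group.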

How the results depend on the processing

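Of the 70 TGFβ responses of a gene in a genotype, all kept their call with edgeR, with median-of-ratios scaling, without the filter and with a pseudocount of 0.1, and none changed sign while called in any alternative. Median-of-ratios scaling shifted libraries by up to -0.11 log2. The 11 calls within genotypes became 18 in the TGFβ experiment alone and 19 with a replicate block. They were 8 with only the 4 samples compared (5 lost, 2 gained; *Smad7* in D164A/-, ΔC/- and dm/- then had adjusted p-values of 0.0543 to 0.0849 by limma) and 11 with the GC trend removed (2 lost, both of *Smad7*, and 2 gained). Genes differing among the 7 genotypes, 2 in the reported fit, numbered 1 with edgeR or a pseudocount of 0.1, 4 in the TGFβ experiment alone or with the replicate block, and 8 with the replicate block and GC trend removed. Mutant responses differing from fl/fl, 1 as reported, numbered 0 with edgeR, 2 with median-of-ratios scaling, 3 in the TGFβ experiment alone, 5 with the replicate block, and 8 with the replicate block and GC trend removed. Differences between deleted and floxed alleles went from 1 to 2 in the TGFβ experiment alone. For Wnt3a, 0 calls within genotypes became 2 with the replicate block and 1 with it and GC trend removed, and 0 averages became 1 with the GC trend removed and 2 with the block as well. The cause of these changes was not tested. Deviations of same-numbered untreated and treated samples correlated at 0.33 or more in 6 of 7 genotypes of each experiment, but at -0.20 in ΔC/- with TGFβ and -0.07 in dm/fl with Wnt3a. The reported fit does not pair the samples by number. The replicate block had been planned as an alternative, and its counts are given here only. A block with crossed numbers for treated ΔC/- cells, chosen after seeing the data, gave counts of 19, 4 and 5 for the first 3 of these comparisons.

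Leaving out 1 library at a time, with a condition left with 1 sample assumed to vary like the others, gave 9 to 12 calls within genotypes, 6 to 7 averages, 1 to 2 genes differing among genotypes and 0 to 2 mutant responses differing from fl/fl. It gave 1 difference between deleted and floxed alleles in all refits, 0 to 3 Wnt3a responses within genotypes, 5 to 8 untreated differences from fl/fl and 2 between deleted and floxed alleles. *Bambi* and *Smad6*, at few CPM, are limited by depth, since 3 reads correspond to 0.0917 to 0.146 CPM.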
